A study of Homo sapiens with 6 samples.

Results

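The genes described are 10 members of the BCL2 family, which controls the mitochondrial route of apoptosis: BCL2, BCL2L1, BCL2L2, MCL1, BCL2L11, BAX, BAK1, BBC3, PMAIP1 and BID. They were chosen by name for their role, with earlier results of these data known, and all 10 were among the 15897 genes listed in the deposited expression table. RNA was sequenced from 6 libraries labelled as H1650, an established human lung adenocarcinoma cell line. The 3 control libraries are labelled wild type, and the 3 shSETD2 libraries are from cells depleted of SETD2, the histone methyltransferase that writes H3K36me3, with short hairpin RNA. The study describes lentiviral delivery of more than 1 hairpin construct, and the sources used here do not say whether the library numbers stand for constructs or for replicates of a construct. The labels do not name a hairpin for the control cells.

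The BCL2 family decides whether the outer mitochondrial membrane stays closed. BAX and BAK1 are the effectors that form pores in it, through which cytochrome c leaves and starts the caspase cascade. BCL2, BCL2L1 (BCL-XL), BCL2L2 (BCL-W) and MCL1 are anti-apoptotic members that hold the effectors back, and BCL2L11 (BIM), BBC3 (PUMA), PMAIP1 (NOXA) and BID are BH3-only proteins that bind the anti-apoptotic members or activate the effectors. Lung adenocarcinoma cells commonly depend on BCL2L1 and MCL1 for survival, and several drugs mimic a BH3 helix to block these proteins.

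What the members share in sequence is the BH3 helix. Its core is a run of 6 codons, namely leucine or methionine, 3 codons of any kind, glycine or alanine, and aspartate. Reading the coding sequence of the MANE Select transcript of each member in frame and on the coding strand, exactly 1 run fitted in each of the 10, inside 1 exon. The pattern alone is not rare, since 29.5% of 18720 human coding sequences hold it at least once. The 18 bases of each core are given 5′ to 3′ on the coding strand, with positions in GRCh37, to show this shared element. The capitals mark the last pair of codons, glycine or alanine and aspartate.
BCL2, chr18:60985594-60985611, minus strand: ctccgccaggccGGCGAC
BCL2L1, chr20:30309737-30309754, minus strand: ctgagggaggcaGGCGAC
BCL2L2, chr14:23777112-23777129, plus strand: atgcgggcagctGGAGAT
MCL1, chr1:150551353-150551370, minus strand: ttacgacgggttGGGGAT
BAX, chr19:49459044-49459061, plus strand: ctcaagcgcatcGGGGAC
BAK1, chr6:33543176-33543193, minus strand: ctcgccatcatcGGGGAC
BCL2L11, chr2:111907680-111907697, plus strand: ttgcggcgtattGGAGAC
BBC3, chr19:47729848-47729865, minus strand: ctgcggcggatgGCGGAC
PMAIP1, chr18:57569905-57569922, plus strand: ctcaggagatttGGAGAC
BID, chr22:18222193-18222210, minus strand: ctcgcccaggtcGGGGAC
In these cores the marked bases were identical in BCL2 and BCL2L1, in BCL2L11 and PMAIP1, and in the 3 genes BAX, BAK1 and BID. BBC3 was the only 1 of the 10 with an alanine codon there.

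Expression is given as FPKM, a fragment count scaled to transcript length and library size, which can be compared between genes because of the first scaling. The number of fragments behind each value is unknown, so the precision of a value is its spread over 3 libraries. FPKM of all listed genes summed to between 218769 and 224603 in the 6 libraries. Taken over all listed genes, which are no independent replicates, the correlation of log2(FPKM + 1) between libraries (Pearson's r) was 0.985 to 0.991 within a group and 0.756 to 0.761 between groups. In library order 1 to 3, SETD2 itself was at 18, 10.2 and 17.6 FPKM in the controls and at 8.97, 8.09 and 12.2 FPKM after depletion, and values are given in this order throughout. The groups overlapped and the difference missed the threshold (log2 fold change −0.58, SE 0.24, limma adjusted p = 0.0641). It passed without control library 2 or without shSETD2 library 3, while leaving out another library gave an adjusted p of up to 0.181. Relative to the median of all genes tested the difference was −0.29, and with median ratio scaling it was −0.27 (limma adjusted p = 0.343). Of 8 lung epithelium markers only NKX2-1 was listed, at 1.44 to 1.8 FPKM in control libraries and at 0 in all 3 shSETD2 libraries. Whether the other 7 lacked expression or were removed by the filter that made the table cannot be told apart. Of 7 epithelium markers 6 were listed, and they summed to between 14.1 and 16 FPKM in control and between 401 and 454 in shSETD2 libraries. Keratin genes carry this sum and the list did not move one way, since CDH1 was at 1.27 ± 0.358 and 0.012 ± 0.00175 FPKM and EPCAM at 0.71 ± 0.124 and 0.22 ± 0.0712 FPKM (SD, n = 3). Of 8 kidney lineage markers 6 were listed, summing to between 12.3 and 14.1 and between 46 and 55.9 FPKM, with 4 genes higher and 2 lower and EMX2 at 0 in the 3 shSETD2 libraries. All 6 mesenchymal markers were listed, summing to between 94.8 and 109 and between 169 and 179.6 FPKM, mostly through VIM. Of the 5 tested, 3 were higher and 1, COL1A1, was lower (2.78 ± 0.244 and 0.269 ± 0.0503 FPKM, SD, n = 3), and the untested COL3A1 was at 0.739 ± 0.0584 and 0.00854 ± 0.0148 FPKM. Of 6 immune markers only CD14 was listed, below 1 FPKM in every library. These markers separate the same libraries as the SETD2 label, so a difference in the kind of cell and the depletion cannot be told apart in any result that follows, and no result can be given without these libraries. In bulk RNA, fewer cells of a type and less RNA per cell cannot be told apart either.

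All 10 members passed the filter of a mean FPKM of at least 0.5 and were tested with 14068 genes by limma on log2(FPKM + 1), with a threshold of an adjusted p under 0.05. BCL2L1, MCL1, BAK1 and BID were higher in shSETD2 cells, BCL2 was lower, and BCL2L2, BAX, BCL2L11, BBC3 and PMAIP1 did not pass. Higher calls were thus 4 of 10, against 26.8% of all genes tested, and lower calls 1 of 10, against 51.8%. Calls of either direction were 5 of 10, against 78.6% of all genes, so a call by itself sets no member apart. The groups did not overlap for 6 of the 10 members, 4 with shSETD2 above and 2 with control above, against 80.9% of all genes. The median log2 fold change of the members was 0.22 and that of all genes tested −0.29, with quartiles of −0.83 and 0.30. Median ratio scaling moved the median of all genes to −0.03 and their split from 3774 higher and 7283 lower to 5215 higher and 5504 lower, and with it 6 members were called higher and 0 lower. Directions of small size therefore depend on scaling, and they are given with it where they turned.

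**Figure D1:**
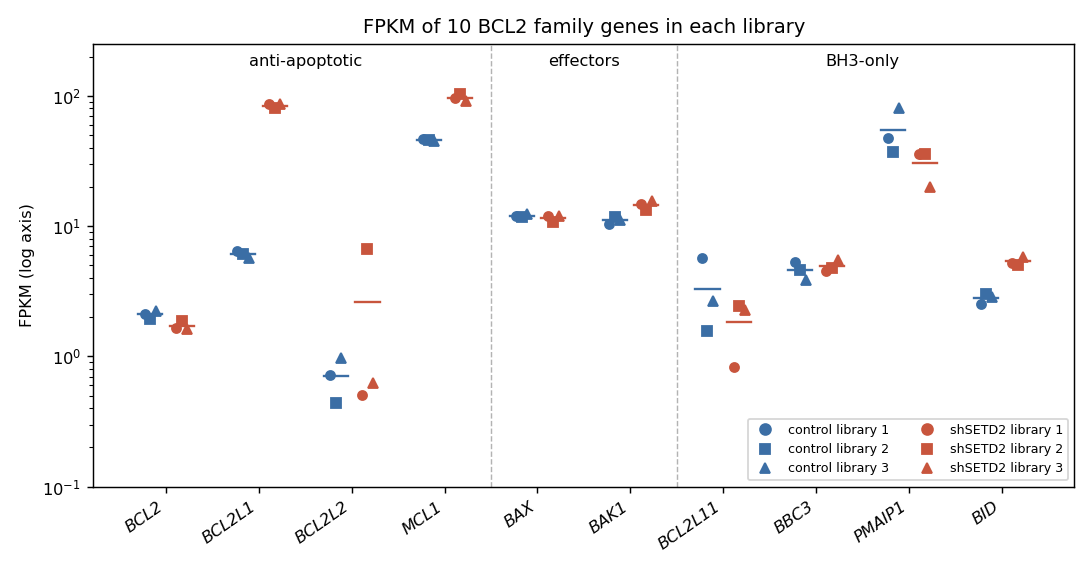
FPKM of the 10 members in each library, on a log axis, with control libraries in blue, shSETD2 libraries in red, a marker shape for each library number and a bar at each group mean. BCL2L1 lies between 5.67 and 6.43 in control and between 80.2 and 86 in shSETD2 libraries, while the single shSETD2 value of BCL2L2 at 6.73 stands far above its other values.

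BCL2L1, the anti-apoptotic member also known as BCL-XL, showed the largest difference of the 10. Its gene lies on chromosome 20 (GRCh37 chr20:30252255-30311792, minus strand). It was at 6.43, 6.07 and 5.67 FPKM in the controls and at 85.9, 80.2 and 86 FPKM in the shSETD2 libraries. Every shSETD2 value was far above every control value, and the libraries of a group lay within 1.13-fold of each other. The group means of 6.06 ± 0.38 and 84 ± 3.33 FPKM (SD, n = 3) differ 13.9-fold. The log2 fold change was 3.59 (SE 0.0556, 95% interval 3.46 to 3.73, limma adjusted p = 4.03e-08), 3.88 above the median of all genes. Of the 14068 genes tested, 177 had a higher log2 fold change. The gene yields a long anti-apoptotic and a short pro-apoptotic splice form, and FPKM of the whole gene does not separate them.

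MCL1, a short-lived anti-apoptotic protein that binds BIM and NOXA, was the other anti-apoptotic member to rise. The gene is at chr1:150547027-150552214 on the minus strand. Its FPKM was 46.8, 46.1 and 45.4 in the control libraries and 95.5, 103 and 91.6 in the shSETD2 libraries. The groups were well apart, and the control values differed by 1.03-fold at most. Means of 46.1 ± 0.722 and 96.6 ± 5.68 FPKM (SD, n = 3) gave a ratio of 2.1 and a log2 fold change of 1.05 (SE 0.0486, limma adjusted p = 2.94e-06). ADAMTSL4-AS1, which the table places on the same strand with 2 bases shared, was at 0.588 to 0.952 FPKM in control and 3.25 to 5.03 FPKM in shSETD2 libraries.

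BCL2, the founding anti-apoptotic member (chr18:60790579-60987361, minus strand), was expressed at a low level. It was at 2.13, 1.95 and 2.22 FPKM in control libraries and at 1.65, 1.88 and 1.62 FPKM in shSETD2 libraries. The control values lay just above all shSETD2 values, with 1.95 and 1.88 the closest. The log2 fold change of −0.19 (SE 0.0673, limma adjusted p = 0.0368) was the 1 lower call, although it lay 0.10 above the median of all genes and turned to 0.18 with quantile normalization (adjusted p = 0.0502) and 0.03 with median ratio scaling (adjusted p = 0.721). The call was also lost when control library 1 (adjusted p = 0.0862), control library 3 (0.0993), shSETD2 library 1 (0.103) or shSETD2 library 3 (0.108) was left out of the limma fit, so the direction of BCL2 is not settled by these libraries.

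BCL2L2, which encodes BCL-W, had the widest spread of all members. Its values were 0.724, 0.44 and 0.969 FPKM in control and 0.509, 6.73 and 0.626 FPKM in shSETD2 libraries. Only shSETD2 library 2 was high, and the other shSETD2 values fell among the control values. The log2 fold change of 0.65 (SE 0.626, limma adjusted p = 0.37) did not pass, and its 95% interval ran from −0.87 to 2.17. Without shSETD2 library 2 it was −0.12 (adjusted p = 0.502).

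The position of BCL2L2 bears on that value. Its locus (chr14:23767999-23780968, plus strand) shares 4925 bases with the readthrough gene BCL2L2-PABPN1 on the same strand, whose transcripts run on into the neighbouring PABPN1. That gene was at 11.6, 10.7 and 10.7 FPKM in control and at 7.9, 2.38 and 9.41 FPKM in shSETD2 libraries. Its low library is the library in which BCL2L2 was high. BCL2L2 made up 5.87%, 3.96% and 8.32% of the sum of the pair in control libraries, and 6.05%, 73.8% and 6.24% in shSETD2 libraries. The sum itself spread less, at 12.3, 11.1 and 11.6 FPKM in control and 8.41, 9.11 and 10 FPKM in shSETD2 libraries. In an alternative chosen after seeing the data, the sum gave means of 11.7 ± 0.606 and 9.19 ± 0.814 FPKM (SD, n = 3) and a log2 fold change of −0.32 (SE 0.0728, limma adjusted p = 6.32e-03). That is close to the median of all genes tested, −0.29, and the sum was not fitted with any other scaling. BCL2L2-PABPN1 makes up most of the sum in every library but shSETD2 library 2, so the sum need not follow BCL2L2. Reads on the shared bases cannot be told apart between the genes, so the level of BCL2L2 alone is uncertain in every library. HOMEZ and PPP1R3E lie on the opposite strand and share 658 and 4059 bases with the locus. The library kit marks strand, but whether the quantification used it is not given in the sources used here.

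**Figure D2:**
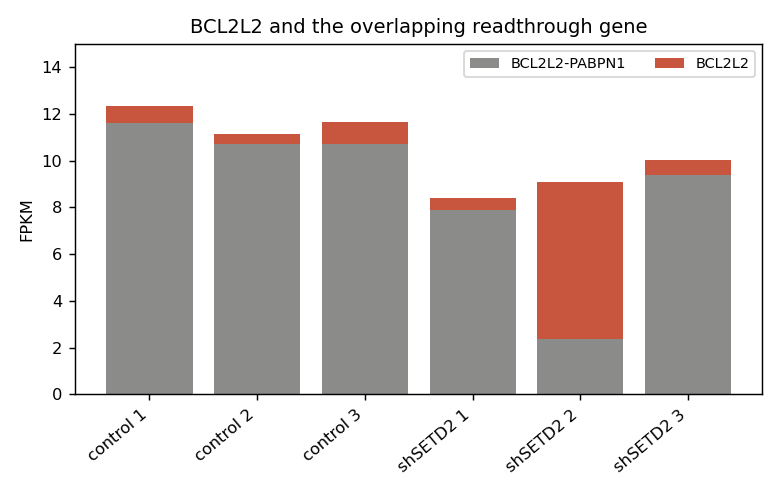
Stacked bars of FPKM in each library for BCL2L2 (red) and the overlapping readthrough gene BCL2L2-PABPN1 (grey), with the axis starting at 0. The height of the stack stays between 8.41 and 12.3 FPKM, while BCL2L2 takes 73.8% of it in shSETD2 library 2 and at most 8.32% in the other libraries.

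Of the effectors, BAK1 rose and BAX gave values that overlapped between the groups. BAK1, which sits in the outer mitochondrial membrane of healthy cells (chr6:33540324-33548070, minus strand), was at 10.4, 11.8 and 11.2 FPKM in control and 14.9, 13.4 and 15.5 FPKM in shSETD2 libraries. All shSETD2 values were above all control values. The means of 11.2 ± 0.694 and 14.6 ± 1.05 FPKM (SD, n = 3) differ by a ratio of 1.31, and the log2 fold change was 0.36 (SE 0.0701, limma adjusted p = 3.14e-03). BAX, which moves from the cytosol to mitochondria when activated (chr19:49458072-49465055, plus strand), was at 11.9, 11.8 and 12.3 FPKM in control and 12, 10.8 and 11.9 FPKM in shSETD2 libraries. Its values were nearly level, with only shSETD2 library 2 a little low. The log2 fold change was −0.05 (SE 0.053, 95% interval −0.18 to 0.08, limma adjusted p = 0.42), and it turned to 0.26 with median ratio scaling (adjusted p = 4.96e-03).

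Among the BH3-only members, BID rose and the other 3 did not pass the test. BID links death receptors to mitochondria, since caspase-8 cleaves it to its active form (chr22:18216904-18257536, minus strand). It was at 2.51, 3 and 2.88 FPKM in control and at 5.23, 5.07 and 5.79 FPKM in shSETD2 libraries. Each shSETD2 value was well above the highest control value. Means of 2.8 ± 0.258 and 5.36 ± 0.379 FPKM (SD, n = 3) differ 1.92-fold, and the test gave a log2 fold change of 0.75 (SE 0.0756, limma adjusted p = 1.23e-04).

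PMAIP1 encodes NOXA, a selective partner of MCL1 (chr18:57567180-57571538, plus strand). Its values were 47.1, 36.9 and 80.9 FPKM in control and 35.8, 35.5 and 19.9 FPKM in shSETD2 libraries. All control values were above all shSETD2 values, but control library 3 was far above the other controls and shSETD2 library 3 far below the other shSETD2 libraries. The means were 55 ± 23 and 30.4 ± 9.06 FPKM (SD, n = 3), and the log2 fold change of −0.80 (SE 0.342, 95% interval −1.63 to 0.03) missed the threshold (limma adjusted p = 0.069). It passed in 2 of 16 alternatives, with quantile normalization (−1.03, adjusted p = 0.0252) and without control library 2 (−1.05, adjusted p = 0.0399). The difference shrank to −0.48 with median ratio scaling (adjusted p = 0.241) and to −0.49 without control library 3 (adjusted p = 0.173).

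BCL2L11 encodes BIM, which binds all the anti-apoptotic members (chr2:111876955-111926024, plus strand). It was at 5.67, 1.58 and 2.64 FPKM in control and at 0.825, 2.45 and 2.28 FPKM in shSETD2 libraries. The libraries of a group differed by up to 3.58-fold and the groups overlapped. With a log2 fold change of −0.54 (SE 0.401, limma adjusted p = 0.258), its 95% interval of −1.51 to 0.44 holds changes in either direction. BBC3, also known as PUMA (chr19:47724079-47736023, minus strand), was at 5.26, 4.6 and 3.87 FPKM in control and 4.51, 4.76 and 5.51 FPKM in shSETD2 libraries. The groups overlapped, at a log2 fold change of 0.09 (SE 0.111, limma adjusted p = 0.476), which became 0.37 with median ratio scaling (adjusted p = 0.0218) and −0.0028 without control library 3 (adjusted p = 0.981).

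**Figure D3:**
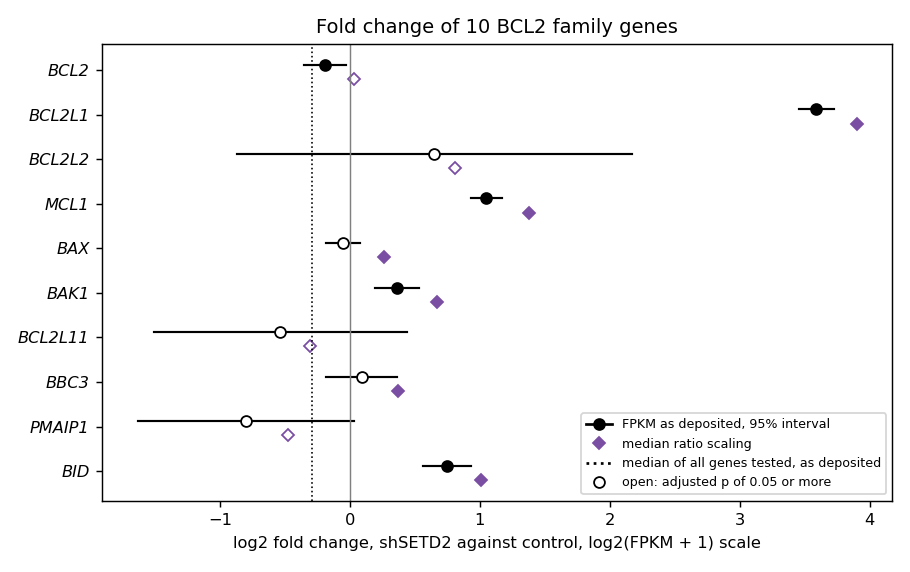
Log2 fold change of each member, shSETD2 against control, on the log2(FPKM + 1) scale, from FPKM as deposited (circles with 95% intervals) and after median ratio scaling (diamonds), filled where the adjusted p is under 0.05, with a dotted line at the median of all genes tested (−0.29). BCL2L1 stands at 3.59, and scaling takes BAX from −0.05 to 0.26 and BCL2 from −0.19 to 0.03.

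The order of RNA levels among the members differed at the top between the groups of libraries. In control cells PMAIP1 (36.9 to 80.9 FPKM) and MCL1 (45.4 to 46.8 FPKM) overlapped as the most abundant members, followed by BAX at a mean of 12, BAK1 at 11.2 and BCL2L1 at 6.06 FPKM. The lowest BAX and the highest BAK1 value both round to 11.8 FPKM. BBC3, BCL2L11 and BID followed with ranges that overlap their neighbours, then BCL2, and BCL2L2 was last at a mean of 0.711 FPKM. In shSETD2 cells MCL1 came first (91.6 to 103 FPKM) and BCL2L1 next (80.2 to 86 FPKM), ahead of PMAIP1 (19.9 to 35.8 FPKM), BAK1 and BAX, with no overlap between neighbours. BID, BBC3, BCL2L2, BCL2L11 and BCL2 each overlapped the next in that order.

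Shares and ratios within a library are left as they are by any constant factor per library, such as upper quartile or median ratio scaling, but not by quantile normalization, and sums of FPKM depend on scaling. All are given from FPKM as deposited, without a test. The 4 anti-apoptotic members summed to 56.1, 54.6 and 54.2 FPKM in control and to 184, 192 and 179.8 FPKM in shSETD2 libraries. In this sum MCL1 held 83.9 ± 0.559% in control and 52.2 ± 1.36% in shSETD2 libraries (SD, n = 3), while BCL2L1 held 11 ± 0.511% and 45.5 ± 3.19%. The share of BCL2 was 3.82 ± 0.265% and 0.927 ± 0.049%. The summed RNA of these 4 genes, with splice forms not separated, was thus mainly MCL1 in control libraries. In shSETD2 libraries it was mainly MCL1 and BCL2L1 in like amounts. The MCL1 to BCL2L1 ratio was 7.28, 7.6 and 8 in control and 1.11, 1.28 and 1.07 in shSETD2 libraries.

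The effectors BAX and BAK1 together gave 22.4, 23.7 and 23.5 FPKM in control and 26.9, 24.2 and 27.4 FPKM in shSETD2 libraries. The ratio of BAX to BAK1 was 1.14, 1 and 1.1 and became 0.808, 0.807 and 0.771, so BAX was level with or above BAK1 in each control library and below it in each shSETD2 library. The anti-apoptotic sum over the effector sum was 2.51, 2.31 and 2.31 in control and 6.82, 7.9 and 6.57 in shSETD2 libraries. This effector sum leaves out the effector-like gene BOK, at 0.257 ± 0.109 FPKM in control and 20.9 ± 1.62 FPKM in shSETD2 libraries (SD, n = 3). With BOK included the ratio in shSETD2 libraries would be lower, so its size depends on the choice of members. The 4 BH3-only members summed to 60.5, 46.1 and 90.3 FPKM in control and to 46.4, 47.7 and 33.5 FPKM in shSETD2 libraries, which overlap. PMAIP1 held between 77.8% and 89.6% of this sum in control and between 59.5% and 77.2% in shSETD2 libraries. The anti-apoptotic sum over the BH3-only sum was 0.904 ± 0.293 in control and 4.45 ± 0.797 in shSETD2 libraries (SD, n = 3), and with PMAIP1 left out it was 5.3 ± 0.974 and 15.4 ± 2.07. The ratio of PMAIP1 to its partner MCL1 was 1.01, 0.799 and 1.78 in control and 0.375, 0.345 and 0.218 in shSETD2 libraries. These are ratios of RNA, and protein was not measured here.

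**Figure D4:**
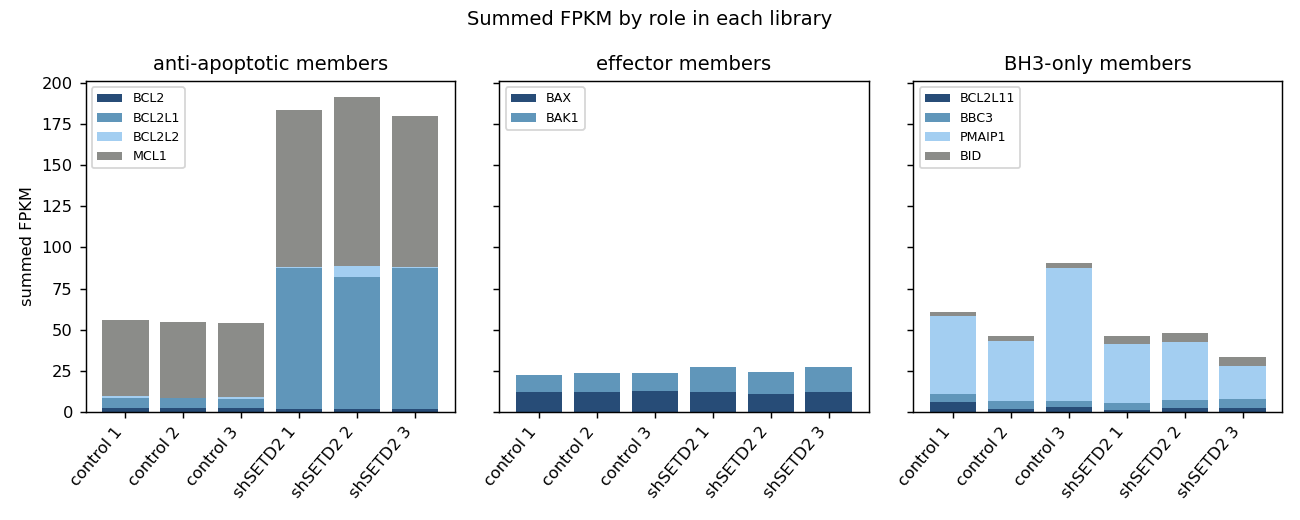
Stacked bars of FPKM in each library for the anti-apoptotic, effector and BH3-only members, on a shared axis that starts at 0. The anti-apoptotic stack grows from between 54.2 and 56.1 to between 179.8 and 192 FPKM, mostly through BCL2L1 and MCL1. The effector stack, which is BAX and BAK1 without BOK, stays between 22.4 and 27.4 FPKM.

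Around the members, 47 further apoptosis genes in 7 lists were examined, of which 43 were listed and 41 tested. BCL2L10, BCL2L14, BCL2L15 and TP63 were not listed. Of the 41, 16 were higher, 14 lower and 11 did not pass, with a median log2 fold change of −0.03, against −0.29 for all genes tested. Of all genes tested 78.6% were called, 26.8% higher and 51.8% lower, so a call in these lists is common too. Median ratio scaling gave 21 higher and 9 lower calls.

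The death receptor pathway, which activates caspase-8 at the cell surface and reaches mitochondria through BID, held 5 higher and 0 lower calls among 6 tested genes, against 26.8% and 51.8% of all genes. The 5 include genes that act against each other, as CFLAR, the inhibitor of caspase-8 activation, named here after its values were seen, had means of 0.905 ± 0.0567 and 9.98 ± 0.402 FPKM (SD, n = 3) and a log2 fold change of 2.53 (SE 0.0557, limma adjusted p = 1.30e-07). TNFRSF10A, a TRAIL receptor, had a listed value of 0 in each control library and of 16.9, 17.8 and 15.4 FPKM after SETD2 depletion. FAS, the receptor of FAS ligand, was at 0.871, 1.12 and 1.37 FPKM in control and 16.2, 18.7 and 17.1 FPKM in shSETD2 libraries (log2 fold change 3.11, SE 0.101, limma adjusted p = 6.40e-07). CASP8, the initiator caspase that cleaves BID, had means of 1.41 ± 0.176 and 6.56 ± 0.702 FPKM (SD, n = 3) and a log2 fold change of 1.65. TNFRSF10B, another TRAIL receptor, had a log2 fold change of 1.51. CASP10 was below the filter and went the other way, at 0.373, 0.326 and 0.643 FPKM in control and 0.131, 0.133 and 0.171 FPKM in shSETD2 libraries. The filter on the mean of all libraries thus left out CASP10 and kept TNFRSF10A through its shSETD2 values alone. The count of higher and lower calls in this list therefore depends in part on the filter.

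Of 9 tested genes among the other BCL2 family members, 5 were higher and 3 lower, and 78.6% of all genes were called. BOK, an effector-like member, had means of 0.257 ± 0.109 FPKM in control and 20.9 ± 1.62 FPKM in shSETD2 libraries (SD, n = 3) and rose by 4.12 on the log2 scale (SE 0.0885, limma adjusted p = 1.18e-07). The BH3-only gene HRK was at 2.67, 2.88 and 2.72 FPKM in control and at 0.00552, 0.0338 and 0 FPKM in shSETD2 libraries, a log2 fold change of −1.89 (limma adjusted p = 3.83e-07). BMF, a BH3-only protein tied to the cytoskeleton, had a log2 fold change of −0.50, and its call was lost with quantile normalization. BNIP3L, a mitophagy receptor, was at 15.5, 7.73 and 16.6 FPKM in control and 35.6, 15.9 and 36.5 FPKM in shSETD2 libraries. Library 2 was the low one in each group, the groups overlapped, and its call (log2 fold change 1.07, limma adjusted p = 0.045) was lost on leaving out any library but shSETD2 library 2, with adjusted p up to 0.13. BCL2A1, an anti-apoptotic member induced by NF-κB, was listed at 0 in the control libraries and at 0.881, 1.07 and 0.405 FPKM in shSETD2 libraries, below the filter on low values.

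The initiator caspase gene CASP2 was lower, with a log2 fold change of −0.77 (SE 0.149, limma adjusted p = 2.96e-03). Cytochrome c, encoded by CYCS, had means of 40.9 ± 0.39 FPKM in control and 27.5 ± 2.96 FPKM in shSETD2 libraries (SD, n = 3) and a log2 fold change of −0.56 (SE 0.0746, limma adjusted p = 4.67e-04). Among 6 inhibitor of apoptosis genes and their antagonists, 2 were higher and 2 lower, against 26.8% and 51.8% of all genes. BIRC3, an inhibitor of apoptosis induced by NF-κB, was at 0.139 ± 0.0975 FPKM in control and 27.9 ± 3.8 FPKM in shSETD2 libraries (log2 fold change 4.66, SE 0.114, limma adjusted p = 1.94e-07), and its neighbour BIRC2 had a log2 fold change of 1.27. BIRC6 had a log2 fold change of −0.47 and the mitochondrial protease HTRA2 of −0.34, the latter not called with median ratio scaling.

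Among transcriptional regulators of the family, DDIT3, the stress factor CHOP, was at 9.79, 10.2 and 12 FPKM in control and 33.8, 23.7 and 34 FPKM in shSETD2 libraries, a log2 fold change of 1.42 (SE 0.152, limma adjusted p = 1.62e-04). E2F1 had a log2 fold change of 0.16 that turned negative with quantile normalization and lost its call when any of the 3 control libraries or shSETD2 library 3 was left out (adjusted p up to 0.0846). FOXO3, an activator of BIM, had a log2 fold change of −0.32 and was not called with median ratio scaling.

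The 3 genes of MCL1 turnover gave 0 higher and 2 lower calls, against 51.8% lower among all genes. These counts turned with scaling, to 1 higher with upper quartile or median ratio scaling and 3 lower with quantile normalization, through HUWE1, another ubiquitin ligase for MCL1 (log2 fold change 0.08, limma adjusted p = 0.0824), named here after its values were seen. FBXW7, a ubiquitin ligase subunit for MCL1, had a log2 fold change of −0.58 and USP9X, a deubiquitinase of MCL1, of −0.48. Of the mitochondrial porins, VDAC1 had a log2 fold change of 0.25, which turned negative with quantile normalization and lost its call when any library but control library 3 was left out (adjusted p up to 0.0871). VDAC3 had a log2 fold change of −0.48, and VDAC2 of −0.30, which turned to 0.02 with median ratio scaling. CYCS and the VDAC genes have processed pseudogenes with near-identical sequence, so their FPKM is uncertain to the extent that reads were shared.

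**Figure D5:**
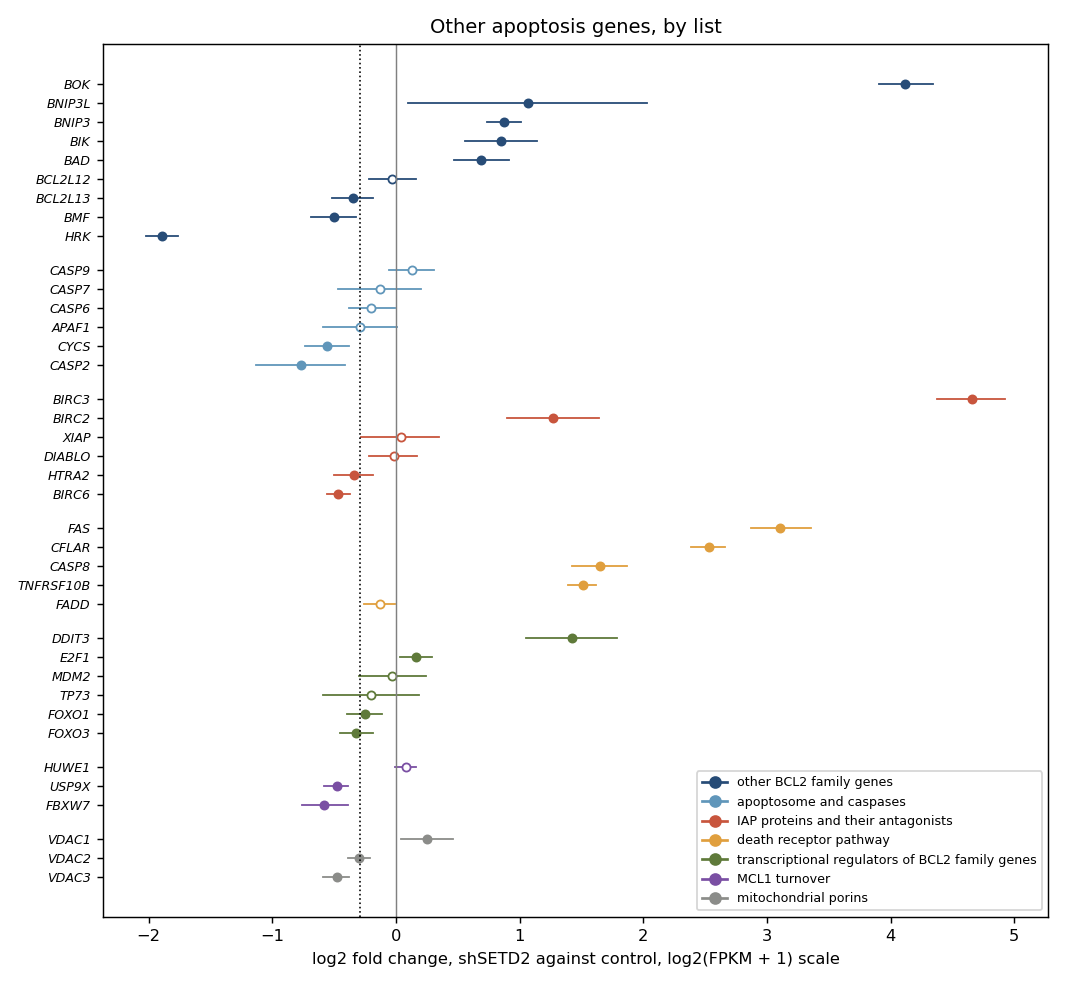
Log2 fold change, shSETD2 against control, on the log2(FPKM + 1) scale, of other apoptosis genes that were tested and not at 0 in a whole group, with 95% intervals, coloured by list and filled where the adjusted p is under 0.05, with a dotted line at the median of all genes tested (−0.29). BIRC3 (4.66), BOK (4.12) and FAS (3.11) lie far to the right, and HRK (−1.89) far to the left.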

How the data were processed

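RNA-seq libraries were made from total RNA with a stranded kit. Reads were aligned by the authors with Hisat2 to the build hg19 (GRCh37), and Ballgown gave the FPKM per gene and library that they deposited. Versions and the rule by which genes entered the table are not given in the sources used here. A second deposited table repeats these values for 15120 genes with the authors' fold changes, p-values and q-values, which were not used. Low FPKM values are not whole multiples of a step, so depth is unknown.

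The 14068 genes whose mean FPKM reached 0.5 were tested on log2(FPKM + 1), which understates changes of low genes. The test was limma 3.58.1 in R 4.3.3 (lmFit, then eBayes with trend) between the 2 groups, adjusted over these genes by Benjamini-Hochberg, and intervals are at 95%. The labels do not say that libraries came from separate cultures, so p-values measure only the spread between these libraries, which may be technical. The fit was tested on simulated data. The members and lists were chosen with earlier results of these data known. Named genes were the 10 members and, of each list, the 2 called genes with the largest and the 2 with the smallest log2 fold change, plus genes not listed. A few genes of the lists are left out of the text, although the counts over all lists include them. Other genes that overlap a member, genes at 0 in a group or below the filter, the targeted gene and markers were named for that reason. BH3 cores were read from GENCODE v44 mapped to GRCh37 with Biopython 1.88 in Python 3.11.15. Pandas 2.3.3 and numpy 2.4.6 made the tables, and matplotlib 3.10.9 the plots. Alternatives were pseudocounts of 0.1 and 0.01, no filter or a mean FPKM of at least 5, 3 scalings, no trend, an ordinary linear model, a replicate block and each library left out.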

Additional observations from a re-analysis of the deposited data

How the results depend on the processing

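BCL2L1 (log2 fold change 3.54 to 3.90), MCL1 (0.79 to 1.38) and BAK1 (0.32 to 0.67) were called higher in all 16 alternatives, and BID (0.69 to 1.01) in all 15 that keep it. A mean FPKM of at least 5 leaves out BCL2, BCL2L2, BCL2L11, BBC3 and BID, and among the 7078 genes it keeps it called 2401 of all genes higher and 3246 lower. BCL2 was not called with a pseudocount of 0.01 (−0.29, limma adjusted p = 0.0507), upper quartile scaling (−0.16, 0.0733), quantile normalization (0.18, 0.0502), median ratio scaling (0.03, 0.721) or the replicate block (−0.19, 0.0913), and leaving out a library gave −0.24 to −0.16 (adjusted p 0.024 to 0.108). The members' count of lower calls was accordingly 0 with the pseudocount of 0.01, the stricter filter, upper quartile scaling, median ratio scaling and the replicate block, and 0 to 2 with a library left out. Quantile normalization called PMAIP1 (−1.03), which leaving out a library moved between −1.05 and −0.49. Median ratio scaling called BAX (0.26) and BBC3 (0.37) higher and left 9 lower calls among the other apoptosis genes. With a library left out BBC3 was −0.0028 to 0.18 and BCL2L2 −0.12 to 1.06, and summing BCL2L2 with its readthrough gene, chosen after seeing the data, gave −0.32. The cause of the other changes was not tested. The libraries share only a number: deviations of same-numbered libraries correlated between −0.02 and 0.02, and the replicate block called 3733 genes higher and 7243 lower, against 3774 and 7283, and among the members changed only the call of BCL2. Without read counts, the floor for low genes such as BCL2 and BCL2L2 is unknown.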
